A study of Mus musculus with 4 samples.

Results

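A group of 10 genes that fetal liver, liver cancer or the ductular reaction are known for was followed in livers with and without Drp1: Afp, H19, Gpc3, Krt19, Krt23, Sox9, Spp1, Cd24a, Ly6d and Epcam. The members were chosen by gene symbol with their differences on these same arrays already known, so every value here is a description and no member was tested. They make up 10 of the 30222 gene names on the array and have 12 probes. The symbols were matched to the gene names in the scanner files.

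Liver RNA of male C57BL/6J mice was hybridised to 4 one-color arrays, 1 for each of 4 groups, so no group has a second array and no error between animals can be given. The Cont mice were Drp1 flox/flox littermates, which GEO's labels call wild type, and the Drp1LiKO mice were Alb-Cre Tg/+ Drp1 flox/flox, labelled knockout. Drp1, encoded by Dnm1l, is the dynamin-like enzyme that divides mitochondria. Cre was driven by the albumin promoter, which is active in hepatocytes and in the fetal precursors of the liver's epithelial cells, so the other cells of the tissue should keep Drp1. All mice ate a lard-based high-fat diet with 45% of calories from fat from 4 weeks of age, for 24 weeks. The refed mice had fasted for 17 h and then ate for 4 h. The other arrays' labels name no feeding state, and they are called fasted here because the study's methods describe mice studied after an overnight fast. Those methods place such experiments in the morning and the sampling of refed mice in the afternoon. Feeding state and time of day therefore cannot be told apart in the refeeding differences. The sources used here do not say whether an array holds RNA of 1 mouse or of a pool.

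Alpha-fetoprotein (Afp) and the imprinted noncoding RNA H19 are made in large amounts by fetal liver and are shut down after birth. Repressors such as Zbtb20 and Zhx2 take part in this. Glypican 3 (Gpc3) is a heparan sulfate proteoglycan of the fetal liver and of hepatocellular carcinoma. The ductular reaction is the spread of bile duct-like cells in an injured liver. Its cells carry keratin 19 (Krt19), keratin 23 (Krt23), the transcription factor Sox9, the adhesion molecule Epcam, the surface protein Cd24a and osteopontin (Spp1), a secreted ligand of integrins and CD44 that some macrophages also make. Ly6d is a small membrane-anchored protein of the Ly6 family that marks early B cells and several epithelia.

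Levels are log2 processed signals relative to the array's own 75th percentile, so that 0 is that percentile. Each probe binds with its own strength, so a level can be set against the same gene on another array but not against another gene. The scanner software marks each spot as well above background or not, and a gene is called detected on an array where its probe was. Where a gene was detected on only 1 array of a pair, the other array was read at that array's lowest level that was, or at its own level if higher, and the difference is written as at least so large. The ± values are measurement errors that the scanner software assigns to a signal. They cover the scan and not the difference between mice. A difference is called when it reached 2-fold.

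Probe sequences show what was measured where the probes of 1 gene parted or a probe gave nothing. H19 has 2 probes, both 60 bases long and both on the minus strand of chromosome 7 in the mm9 build. The one named H19 distal was well above background on 3 arrays, and the one named H19 proximal on none. The single probes of Krt19 and Epcam follow, because they are the bile duct genes at the 2 ends of detection, the first well above background on all 4 arrays and the other on none. They are given in lower case, 5′ to 3′, as the array carries them.
H19 distal, chr7:149761492-149761551: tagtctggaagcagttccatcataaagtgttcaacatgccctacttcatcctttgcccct
H19 proximal, chr7:149762417-149762476: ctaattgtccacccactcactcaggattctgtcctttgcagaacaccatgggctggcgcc
Krt19, chr11:100002392-100002451, minus strand: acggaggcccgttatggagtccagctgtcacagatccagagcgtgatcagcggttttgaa
Epcam, chr17:88048972-88049800, plus strand: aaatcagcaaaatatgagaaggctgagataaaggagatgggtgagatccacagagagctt
The Epcam probe is also 60 bases long but its position spans 829 bases of the genome.

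RefSeq's table of transcription start sites on GRCm38.p6 held 5 of the 10 members: Afp, Spp1, Krt23, Epcam and Gpc3. The 250 bases before the start are printed for Afp, which was higher in Drp1LiKO in both feeding states, and for Krt23, whose genotype difference ran in opposite directions. Both are on the gene's own strand, in lower case.
Afp, chr5:90490464-90490713: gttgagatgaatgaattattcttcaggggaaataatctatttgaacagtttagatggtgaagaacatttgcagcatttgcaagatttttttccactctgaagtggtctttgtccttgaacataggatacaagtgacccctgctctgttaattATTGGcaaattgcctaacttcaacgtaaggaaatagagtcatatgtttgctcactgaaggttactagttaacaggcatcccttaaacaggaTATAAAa
Krt23, chr11:99493121-99493370, minus strand: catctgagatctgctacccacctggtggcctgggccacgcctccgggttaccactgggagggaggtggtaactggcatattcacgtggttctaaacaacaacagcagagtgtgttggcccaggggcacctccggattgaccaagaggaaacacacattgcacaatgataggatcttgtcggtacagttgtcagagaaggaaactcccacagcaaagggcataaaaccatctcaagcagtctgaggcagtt
Capitals mark matches to 3 short motifs, each searched on both strands, which do not overlap here. The CCAAT box, CCAAT, lies on the opposite strand in the Afp window, 98 bases before the start, and occurs in 33.8% of all 32851 sequences of this length in the table. The TATA box letters, TATAAA, begin 7 bases before the listed start and occur in 12.4% of all. Whether this match works as a TATA box for that start was not tested. The AP-1 letters TGANTCA, found in 6.75% of all, are not in this window, and none of the 3 motifs is in the Krt23 window.

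The 4 arrays differed in brightness. The 75th percentile of the processed signal was 461 for Cont fasted, 722 for Drp1LiKO fasted, 357 for Cont refed and 526 for Drp1LiKO refed. In the same order 51.4%, 58.2%, 48.7% and 55.4% of gene spots were well above background, so a dim gene was measured more often on the Drp1LiKO arrays. The probe of Dnm1l gave a Drp1LiKO minus Cont difference of -0.21 ± 0.20 fasted and -0.12 ± 0.20 refed. The sources used here do not place this probe inside or outside the deleted part, so it does not check the genotype labels. The tissue itself carried its defining marker: Alb was at 9.24 to 10.06 on the 4 arrays.

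Of the 10 members, 6 were well above background on all 4 arrays (Afp, Krt19, Krt23, Spp1, Cd24a and Ly6d), 2 on 3 arrays (H19 and Sox9), 1 on 1 array (Gpc3) and 1 on none (Epcam). Since RNA came from whole tissue, fewer cells of a type and less RNA per cell cannot be told apart.

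**Figure D1:**
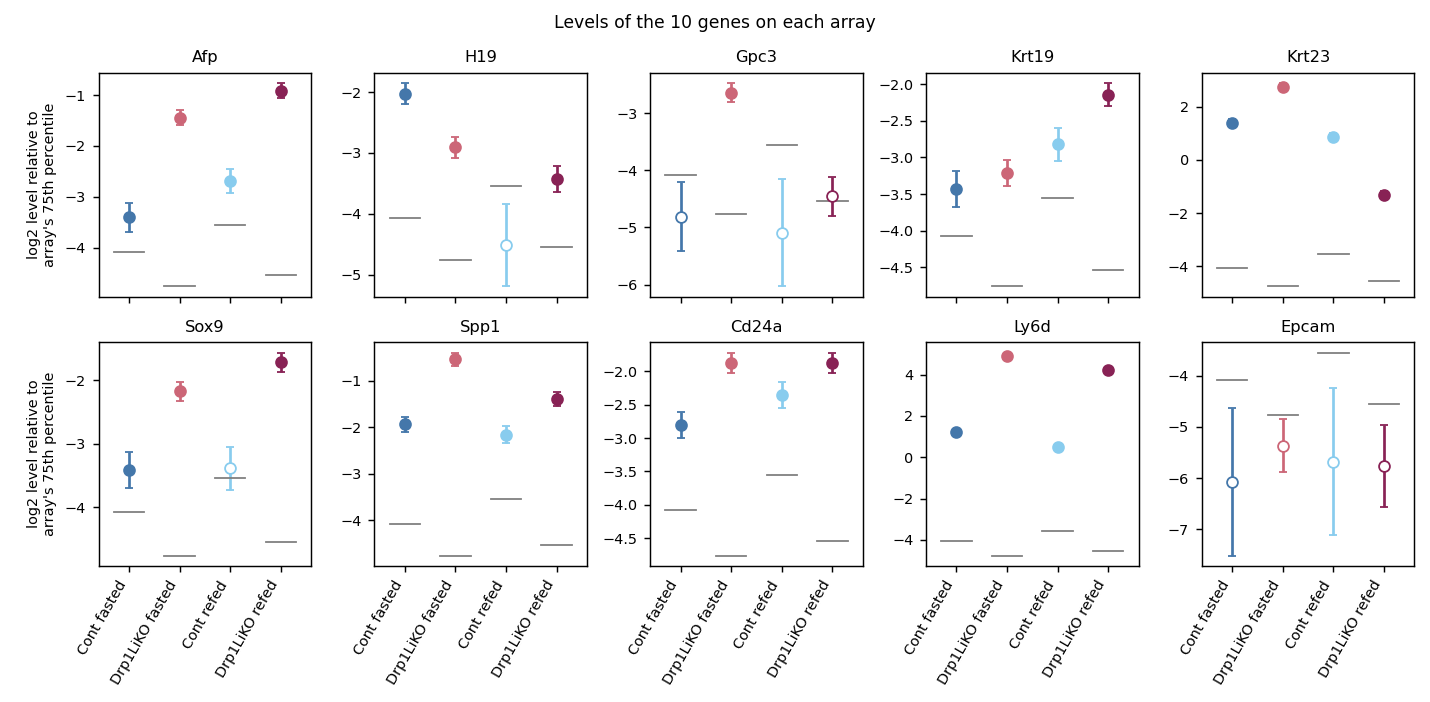
Log2 level of each of the 10 genes relative to the array's 75th percentile (y axis, its own scale in each panel) on the 4 arrays (x axis). Filled points were well above background and open points were not, bars are the measurement error of 1 array, and grey lines are the lowest level well above background on that array. Ly6d and Afp lie higher on both Drp1LiKO arrays, Krt23 is highest on the fasted and lowest on the refed Drp1LiKO array, and Epcam lies below the grey line on every array.

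Afp, the fetal counterpart of albumin, was at -3.40 ± 0.28 in Cont fasted, -1.45 ± 0.15 in Drp1LiKO fasted, -2.69 ± 0.24 in Cont refed and -0.92 ± 0.15 in Drp1LiKO refed. Both Drp1LiKO arrays lay above both Cont arrays. The order ran from Drp1LiKO refed through Drp1LiKO fasted and Cont refed to Cont fasted, and only the Cont arrays, 0.71 ± 0.37 apart, were within 2 measurement errors of each other. Afp was 3.88-fold higher in Drp1LiKO fasted (log2 difference 1.96 ± 0.32) and 3.42-fold higher in Drp1LiKO refed (1.77 ± 0.28). Its refeeding difference was 0.71 ± 0.37 in Cont and 0.53 ± 0.21 in Drp1LiKO. Under normexp, a background correction that adds a constant of 50 and pulls dim signals together, the genotype differences were 0.97 in both feeding states, just under 2-fold.

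The Afp probe, at chr5:90937781-90937840 of mm9, is printed 10 times on each array, which shows the technical spread. The used spots ran from 41.5 to 48.3 processed signal units in Cont fasted, from 248 to 322 in Drp1LiKO fasted, from 46.6 to 60.02 in Cont refed and from 266 to 292 in Drp1LiKO refed. No used Cont spot reached any Drp1LiKO spot. These signals are not scaled between arrays, and both Drp1LiKO arrays were brighter than both Cont arrays, so the gap includes array brightness. In Cont fasted 1 spot with a signal of 135 was marked as an outlier by the scanner software and left out. The repeated spots share 1 RNA sample per array and are not replicates of a group.

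**Figure D2:**
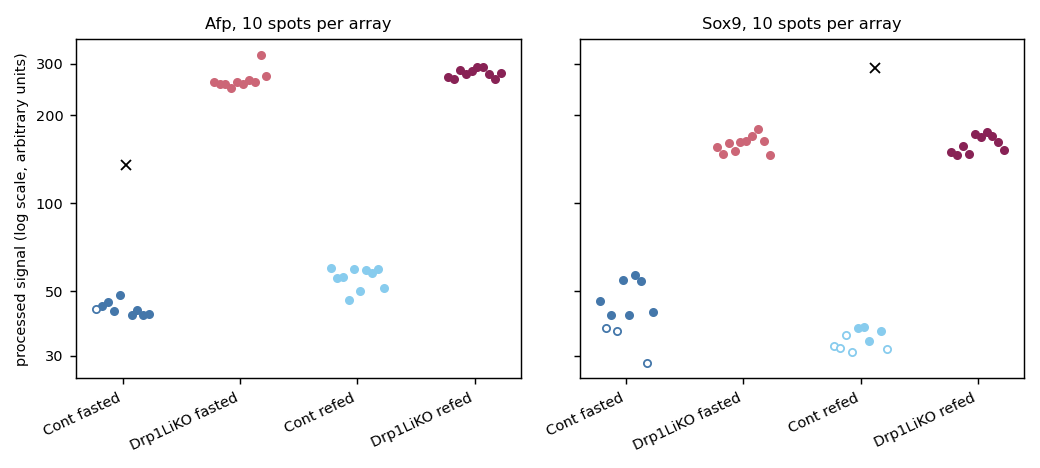
Processed signal of every printed spot of the Afp (left) and Sox9 (right) probes on the 4 arrays (y axis, log scale, arbitrary units, not scaled between arrays). Filled points were well above background, open points were not, and crosses were left out as outliers. For both genes all Drp1LiKO spots lie above all used Cont spots, and the 2 crosses, at 135 for Afp and 289 for Sox9, lie far above the other spots of their array.

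H19 ran another way. Its distal probe was at -2.03 ± 0.17 in Cont fasted, -2.90 ± 0.17 in Drp1LiKO fasted and -3.43 ± 0.22 in Drp1LiKO refed, and was not well above background in Cont refed. Cont fasted was the highest array, and the Drp1LiKO arrays were within 2 measurement errors of each other. The genotype difference was -0.88 ± 0.24 fasted, not a called difference, and at least 0.12 refed. H19 was at least 2.87-fold lower in Cont refed than in Cont fasted. With normexp that difference was -0.61 on the log2 scale, short of 2-fold. The proximal probe, at 5.97 to 12.6 processed signal units, stayed below that mark on all 4 arrays.

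Gpc3 was well above background in Drp1LiKO fasted only, at -2.64 ± 0.16 by its probe at chrX:49625740-49625799. Its signal there was 116, against 16.4 in Cont fasted, 10.5 in Cont refed and 23.9 in Drp1LiKO refed. It was at least 2.71-fold higher in Drp1LiKO fasted than in Cont fasted and at least 3.53-fold higher in Drp1LiKO fasted than in Drp1LiKO refed. With normexp these differences were 0.50 and -0.50 on the log2 scale, short of 2-fold. Another Gpc3 probe, at chrX:49740892-49740951, was detected on none, so the difference rests on 1 spot of 1 array.

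Ly6d had the largest genotype difference among the members. Its probe, at chr15:74592551-74592610, minus strand, was at 1.23 ± 0.14 in Cont fasted, 4.92 ± 0.14 in Drp1LiKO fasted, 0.50 ± 0.15 in Cont refed and 4.24 ± 0.14 in Drp1LiKO refed. Every neighbour in this order of levels differed by more than 2 measurement errors, with the Drp1LiKO arrays far above. Ly6d was 12.9-fold higher in Drp1LiKO fasted (3.69 ± 0.20) and 13.3-fold higher in Drp1LiKO refed (3.74 ± 0.20). It ranked 8th from the highest of 15396 genes measured on both arrays fasted, and 5th of 14612 refed. Refeeding went with lower Ly6d by a similar amount in both genotypes, -0.73 ± 0.20 in Cont and -0.68 ± 0.20 in Drp1LiKO. That likeness depended on the scaling, since the Drp1LiKO difference was -1.03, past 2-fold, both with quantile normalization and in the authors' normalized values.

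Sox9, the transcription factor of bile duct cells and of hepatocytes that take on duct features, was at -3.42 ± 0.28 in Cont fasted, -2.18 ± 0.15 in Drp1LiKO fasted and -1.72 ± 0.15 in Drp1LiKO refed. In Cont refed 4 of the 9 spots used were well above background, fewer than the share of 0.5 that was required. Sox9 was 2.37-fold higher in Drp1LiKO fasted (1.24 ± 0.32) and at least 3.18-fold higher in Drp1LiKO refed. Its 10 spots per array, at chr11:112648809-112648868, ran from 28.4 to 56.6 in Cont fasted and from 31.0 to 37.6 in Cont refed, where 1 outlier of 289 was left out. The Drp1LiKO spots ran from 146 to 179 fasted and from 146 to 176 refed, with no overlap with the used Cont spots. These spot signals, too, are not scaled for array brightness. With normexp the differences were 0.45 and 0.69, both short of 2-fold.

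Osteopontin (Spp1), at chr5:104868502-104868561, was at -1.94 ± 0.16 in Cont fasted, -0.54 ± 0.15 in Drp1LiKO fasted, -2.16 ± 0.18 in Cont refed and -1.39 ± 0.15 in Drp1LiKO refed. Both Drp1LiKO arrays were above both Cont arrays, and the Cont arrays were within 2 measurement errors of each other. Spp1 was 2.64-fold higher in Drp1LiKO fasted (1.40 ± 0.22) and 1.71-fold higher in Drp1LiKO refed (0.77 ± 0.23), the latter below the 2-fold line. With normexp the differences were 1.02 and 0.39.

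Krt23, a keratin that injured liver makes, turned round between the feeding states. It was at 1.39 ± 0.14 in Cont fasted, 2.74 ± 0.14 in Drp1LiKO fasted, 0.88 ± 0.14 in Cont refed and -1.31 ± 0.15 in Drp1LiKO refed, by its probe at chr11:99339393-99339452. All neighbours in this order differed by more than 2 measurement errors, and the Drp1LiKO arrays held both the highest and the lowest level. Krt23 was 2.54-fold higher in Drp1LiKO fasted (1.35 ± 0.20) and 4.55-fold lower in Drp1LiKO refed (-2.19 ± 0.21). The refed genotype difference minus the fasted one was -3.53 ± 0.29. Refed Drp1LiKO was 16.5-fold lower than fasted Drp1LiKO (-4.04 ± 0.21), while the Cont arrays differed by -0.51 ± 0.20. Over the processing alternatives the fasted genotype difference lay between 1.29 and 1.52 and the refed one between -2.19 and -1.82.

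Krt19, the keratin by which bile ducts are usually stained, was dim on all 4 arrays. It was at -3.43 ± 0.25 in Cont fasted, -3.21 ± 0.18 in Drp1LiKO fasted, -2.82 ± 0.23 in Cont refed and -2.14 ± 0.15 in Drp1LiKO refed. The 3 lower arrays lay within 2 measurement errors of their neighbours. The genotype difference was 0.22 ± 0.31 fasted and 0.68 ± 0.28 refed, and with normexp -0.14 and 0.16. The refeeding difference was 0.61 ± 0.34 in Cont and 1.07 ± 0.23 in Drp1LiKO, where it reached 2-fold, but was 0.72 with normexp.

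Cd24a, a surface protein of progenitor and duct cells, was at -2.80 ± 0.20 in Cont fasted, -1.87 ± 0.15 in Drp1LiKO fasted, -2.35 ± 0.19 in Cont refed and -1.88 ± 0.15 in Drp1LiKO refed. Each level was within 2 measurement errors of the next. Its genotype difference was 0.93 ± 0.25 fasted and 0.47 ± 0.25 refed, and none of its 4 differences reached 2-fold. With normexp the genotype differences were 0.43 and 0.11. Epcam, the adhesion molecule of duct cells, had processed signals of 6.86, 17.5, 6.99 and 9.68 in the order Cont fasted, Drp1LiKO fasted, Cont refed and Drp1LiKO refed. None was well above background, so no difference is given.

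Counted together, 6 of the 10 members were called higher in Drp1LiKO fasted (Afp, Gpc3, Krt23, Sox9, Spp1 and Ly6d) and 0 lower. Of the 17946 genes detected on 1 or both of these arrays, 4.52% were called higher and 5.03% lower. In the refed pair 3 members were higher (Afp, Sox9 and Ly6d) and 1 was lower (Krt23), where 4.03% of 17366 genes were higher and 6.34% lower. Since these differences were known when the members were chosen, nothing is read from these shares.

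The 3 members higher in both feeding states were Afp, Sox9 and Ly6d, where 1.62% of 16446 genes were higher in both. Krt23 was the single member called in opposite directions, which 0.268% of those genes were. The median genotype difference over the 8 members measured on both fasted arrays was 1.29, and over the 6 measured on both refed arrays 0.73. Over all genes measured on both arrays the medians were -0.12 and -0.08.

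**Figure D3:**
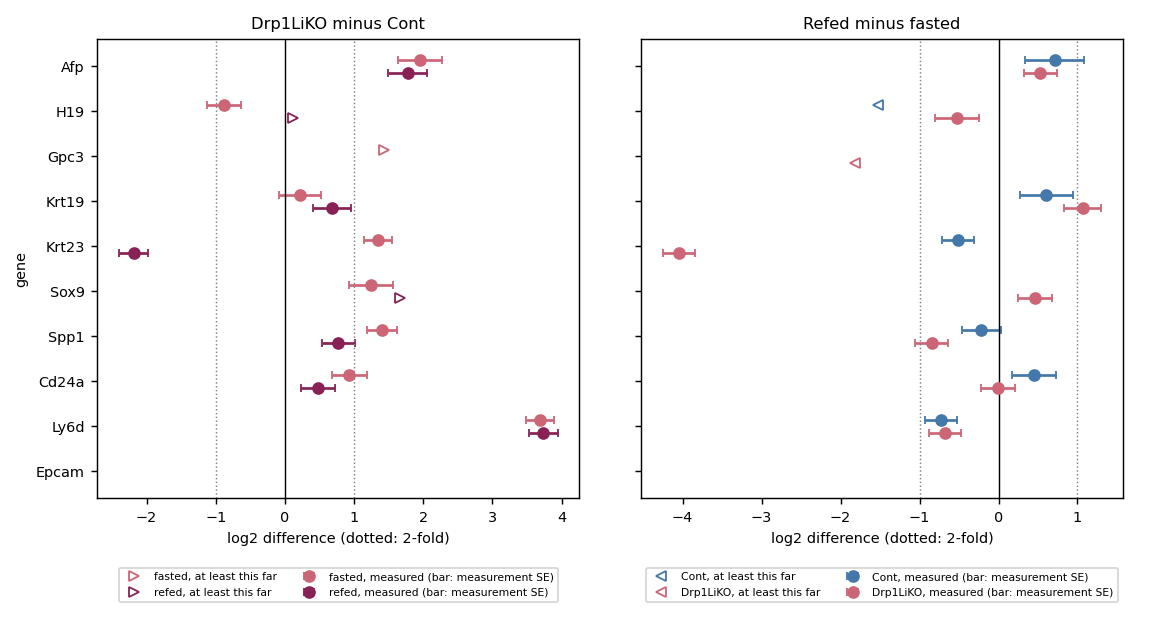
Log2 differences of the 10 genes between genotypes (left, Drp1LiKO minus Cont) and between feeding states (right, refed minus fasted). Filled points were measured on both arrays with the measurement error as a bar, open triangles are bounds that point away from 0, and dotted lines mark 2-fold. Ly6d lies near 3.7 in both feeding states, Krt23 at 1.35 fasted and -2.19 refed, and Epcam has no point.

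Fewer members were called between the feeding states. Among Cont mice 0 members were called higher and 1 lower (H19), against 3.69% and 3.67% of 16358 genes. Among Drp1LiKO mice 1 was called higher (Krt19) and 2 lower (Gpc3 and Krt23), against 4.52% and 4.74% of 18237 genes. The median refeeding difference was 0.12 over the 6 members measured on both Cont arrays and -0.27 over the 8 measured on both Drp1LiKO arrays, and over all genes it was 0.11 and 0.10. The genotype and refeeding comparisons share arrays, so their values are not independent of each other.

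**Figure D4:**
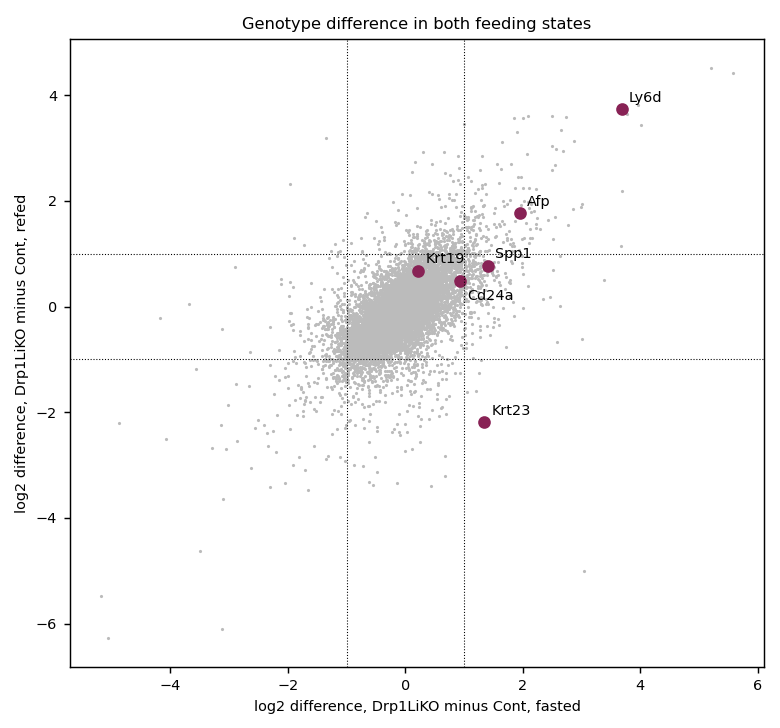
Genotype difference (log2, Drp1LiKO minus Cont) in fasted mice (x axis) and refed mice (y axis) for the 14387 genes detected on all 4 arrays, in grey, with the 6 members among them in color. Dotted lines mark 2-fold. Ly6d sits at 3.69 and 3.74 in the upper right, Afp at 1.96 and 1.77, and Krt23 lies at the lower right at 1.35 and -2.19, among few grey points.

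Of the regulators of Afp and H19, 12 of 13 were detected on all 4 arrays, and their median genotype difference was -0.40 fasted and -0.15 refed. The single called gene was Foxa1, a pioneer factor of liver, at -1.10 ± 0.20 fasted and 0.35 ± 0.20 refed. Zbtb20, the repressor of Afp, was at -0.77 ± 0.20 fasted and -0.28 ± 0.20 refed. Cebpa, a transcription factor of mature hepatocytes, was at -0.60 ± 0.20 and -0.84 ± 0.20. Zfhx3, another repressor of Afp, was at -0.23 ± 0.21 and 0.72 ± 0.21, and the probe of Zhx2 was not well above background anywhere. Afp stands beside Alb, Afm and Gc in the albumin gene cluster. The difference of Alb was -0.52 ± 0.20 fasted and -0.55 ± 0.20 refed, that of Afm -0.53 ± 0.20 and -0.70 ± 0.20, and that of Gc -0.38 ± 0.20 and -0.29 ± 0.20, all opposite in sign to Afp.

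Other fetal and imprinted genes were looked up for H19. Of 18 with a probe, 14 were detected on 1 array or more. In the fasted pair 5 were called higher (Dlk1, Meg3, Plagl1, Mest and Mirg) and 1 lower (Grb10), and in the refed pair 3 were higher (Meg3, Mirg and Impact) and 1 lower (Zim1), with medians of 0.58 and 0.39 over those measured on both arrays. Meg3, an imprinted noncoding RNA, was at -3.44 in Cont fasted, 2.88 in Drp1LiKO fasted and 0.59 in Drp1LiKO refed, and was not well above background in Cont refed. Its genotype difference was 6.32 ± 0.30 fasted and at least 4.14 refed. Mirg, which lies in the same imprinted cluster, was at least 3.51 higher fasted and at least 1.74 higher refed on the log2 scale. Igf2, the growth factor gene next to H19, was detected on none of the 4 arrays.

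In the Ly6 family, 4 of 17 genes were called higher in both feeding states, and 1 was called lower, Ly6i refed, at -1.11 or lower. Beside Ly6d the higher genes were Ly6a (2.23 ± 0.20 fasted and 2.23 ± 0.20 refed), Ly6c1 (1.11 ± 0.20 and 1.23 ± 0.20) and Ly6e (1.03 ± 0.20 and 1.69 ± 0.20). Their probes could share RNA of near-identical family members, which was not tested. The family's median over 9 genes measured on both arrays was 0.71 fasted and 0.02 refed. Of 9 epithelial keratins, 1 was called higher fasted (Krt23), and refed 2 were higher (Krt8 and Krt20) and 1 lower (Krt23). Krt8 and Krt18, the keratins of hepatocytes, were at 0.42 ± 0.20 and 0.40 ± 0.20 fasted and at 1.01 ± 0.20 and 0.97 ± 0.20 refed. Krt20 was detected in Drp1LiKO refed alone, at least 1.18 above Cont refed, and Krt80 ran the other way, at -0.72 ± 0.21 fasted and -0.42 ± 0.21 refed. The median over the 5 keratins measured on both arrays was 0.40 fasted and 0.68 refed. The members Krt19 and Krt23 are among these 5, and the refed median is the value of Krt19 itself. Among 6 glypicans 3 were detected on 1 array or more, and Gpc1 (-0.11 ± 0.20 fasted, -0.43 ± 0.20 refed) and Gpc4 (-0.19 ± 0.22, -0.31 ± 0.22) stayed within 2-fold.

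The wider bile duct and progenitor genes went in both directions. Of 38 with a probe, 32 were detected on 1 array or more. In the fasted pair 5 were higher (Sox4, Tspan8, Cdh1, Anxa3 and Anxa5) and 4 lower (Onecut1, Cftr, Ehf and Wfdc2), with a median of 0.08. In the refed pair Cdh1 and Lcn2 were among those higher and 3 were lower (Onecut1, Ehf and Wfdc2), with a median of -0.07. Onecut1, a transcription factor of liver and bile duct development, was at -1.996 ± 0.20 fasted and -1.54 ± 0.20 refed. Cdh1, the epithelial cadherin, was at 1.01 ± 0.21 and 1.74 ± 0.23, and Wfdc2, a secreted protease inhibitor, at -1.53 ± 0.20 and -1.97 ± 0.20. Ehf, an epithelial transcription factor, was at -1.09 ± 0.39 fasted and at -2.23 or lower refed.

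Of the 15 cholangiocyte markers, among which are Krt19, Epcam, Sox9 and Spp1, 14 were detected on 1 array or more and 7 on all 4. Their median difference was 0.22 fasted, which is the value of the member Krt19 itself, and 0.30 refed. Their summed linear level relative to the 75th percentile was 13.6 in Cont fasted, 10.5 in Drp1LiKO fasted, 16.7 in Cont refed and 10.6 in Drp1LiKO refed. A sum follows its brightest probes, and here Slc4a2, a bicarbonate exchanger of bile ducts, alone made up 11.4, 7.06, 14.3 and 7.29 in the same order. The other 14 markers summed to 2.23, 3.43, 2.43 and 3.34, so their sum was higher on both Drp1LiKO arrays while the sum with Slc4a2 was lower. These 14 still include the members Krt19, Epcam, Sox9 and Spp1, which were chosen with their differences known. The sums and medians of this list are therefore not separate from the members' own values. Of the defining duct markers, Krt7 was detected on both Drp1LiKO arrays but on neither Cont array, at a difference of at least 0.01 refed, and Epcam on none. The refed levels of Krt7 were nearly equal, -3.58 in Cont and -3.53 in Drp1LiKO, and the fasted ones were -4.95 and -4.65. Since the lowest detected level was lower on the Drp1LiKO arrays, this split in detection does not show higher Krt7. The part of bile duct cell number in the members' differences was not tested.

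**Figure D5:**
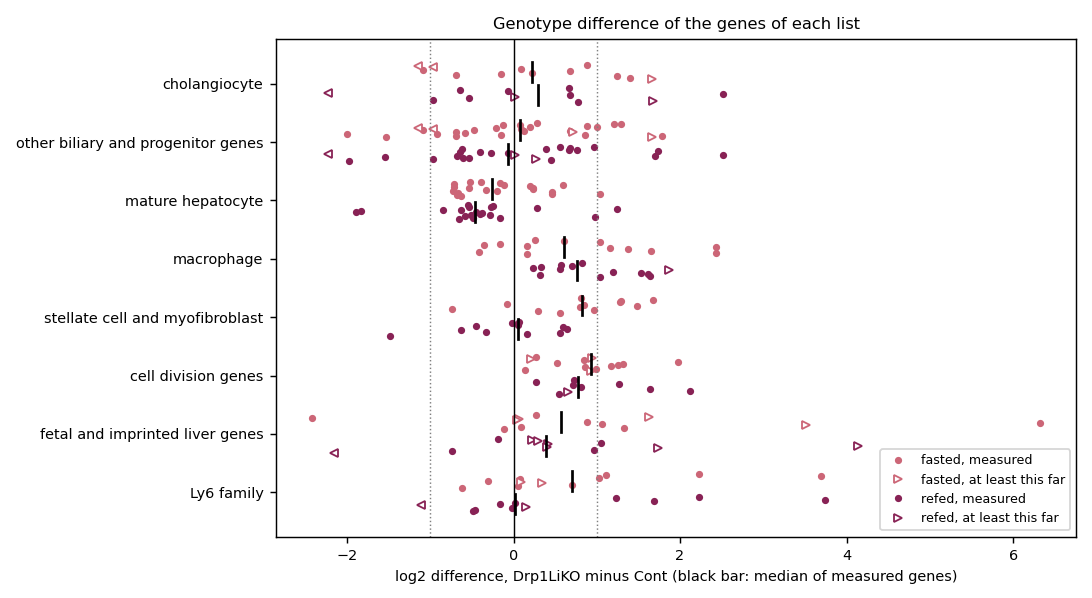
Log2 genotype difference (x axis, Drp1LiKO minus Cont) of the genes of 8 lists (y axis) in fasted and refed mice. Each filled point is 1 gene measured on both arrays, open triangles are bounds that point away from 0, black bars are medians of the filled points and dotted lines mark 2-fold. The bile duct lists spread to both sides of 0, the mature hepatocyte list lies mostly below 0, and the macrophage and cell division lists lie mostly above 0. Points of the cholangiocyte list include the members Krt19, Sox9 and Spp1, and those of the Ly6 family include Ly6d.

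Of 17 genes for signals known to drive the ductular reaction 13 were detected on 1 array or more, and 4 were higher fasted (Tnfrsf12a, Fgf7, Tgfb2 and Lgals3) and 2 refed (Tnfrsf12a and Lgals3), with medians of 0.28 and -0.11. The single gene lower was Lif, a cytokine, fasted. Tnfrsf12a, the receptor of the cytokine TWEAK, was at 1.66 ± 0.20 fasted and 1.996 ± 0.20 refed, while its ligand Tnfsf12 was at -0.73 ± 0.21 and -0.81 ± 0.21. Lgals3, a galactose-binding lectin, was at 1.67 ± 0.20 and 1.21 ± 0.20. Of 14 Notch pathway genes, 0 were higher and 2 were lower fasted (Notch1 and Jag2), and 0 were called refed, with medians of 0.09 and -0.17. Notch1, a receptor, was at -1.37 ± 0.21 and -0.28 ± 0.24, and its ligand Jag1 at 0.56 ± 0.34 and -0.09 ± 0.34. Of 17 Yap and Hippo pathway genes, only Ctgf, a target of Yap, was called, at 1.38 ± 0.21 fasted and 0.14 ± 0.22 refed, and the medians were 0.08 and -0.03. Axl, a receptor kinase, was at 0.46 ± 0.20 and 0.62 ± 0.21. Of the 9 receptor genes for Spp1 none was called in either genotype comparison, the medians were 0.20 and 0.09, and the largest differences were those of the integrin genes Itga4, at 0.92 ± 0.25 fasted and 0.87 ± 0.29 refed, and Itga8, at 0.92 ± 0.21 and 0.28 ± 0.23.

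Markers of other cell types differed between the same arrays. Of 13 macrophage genes, 6 were called higher in each feeding state, with medians of 0.60 and 0.76, and 5 in both: Marco, Trem2, Gpnmb, Lyz2 and Itgax. Trem2, a receptor of lipid-laden macrophages, was at 2.43 ± 0.21 fasted and 1.64 ± 0.21 refed. The summed macrophage level was 98.0 in Cont fasted, 117 in Drp1LiKO fasted, 109 in Cont refed and 193 in Drp1LiKO refed. Among 12 genes of stellate cells and myofibroblasts 4 were higher fasted (Col1a1, Col1a2, Col3a1 and Lum) and 0 lower, while refed 0 were higher and 1 was lower (Timp1), with medians of 0.82 and 0.06. Timp1, an inhibitor of matrix proteases, was at 0.56 ± 0.23 fasted and -1.48 ± 0.22 refed, and Lum, a collagen-binding proteoglycan, at 1.48 ± 0.21 and 0.64 ± 0.21. Of 16 cell division genes 4 were higher fasted and 3 refed, with medians of 0.93 and 0.77. Ccnd1, the cyclin of early cell cycle entry, was at 1.98 ± 0.20 and 1.27 ± 0.20, and the replication factor Mcm2 at 1.17 ± 0.30 and 1.64 ± 0.28.

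All 20 mature hepatocyte genes were detected on all 4 arrays, with medians of -0.26 fasted and -0.47 refed. Of these genes 13 were lower by any amount fasted and 17 refed, though 0 fasted and 2 refed reached 2-fold lower (G6pc at -1.90 ± 0.20 and Cyp3a11 at -1.83 ± 0.20). Called the other way were Tat, an enzyme of tyrosine breakdown, fasted (1.04 ± 0.20), and Cps1, the first enzyme of the urea cycle, refed (1.24 ± 0.20).

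Early B cells carry Ly6d. Of the B cell markers among 10 lymphocyte genes, Cd79a was at 0.15 ± 0.27 fasted and -0.20 ± 0.24 refed. Ms4a1 was detected on both Drp1LiKO arrays and on neither Cont array, at differences of at least 0.37 fasted and at least 0.78 refed. In this list the T cell gene Cd3g was the single gene called, at least 1.27 higher fasted. The T cell gene Cd3e was at -0.67 ± 0.20 and -0.64 ± 0.20, and Gzma, a protease of cytotoxic cells, at 0.82 ± 0.22 and -0.01 ± 0.22. Pancreatic acinar, mesothelial and gallbladder genes mark tissue that could come along at dissection. In the order Cont fasted, Drp1LiKO fasted, Cont refed and Drp1LiKO refed, the summed acinar level was 5.93, 7.10, 6.19 and 4.44, of which the amylase gene Amy2a5 made up 4.61, 6.29, 4.34 and 3.57. The acinar protease gene Cela2a was detected on the Cont arrays only, with a genotype difference of -2.30 or lower fasted and -2.92 or lower refed, and Ctrb1, another acinar protease gene, was at -0.88 ± 0.21 and -1.08 ± 0.21. The mesothelial sum was 0.56, 0.999, 0.89 and 1.02, with Msln at a difference of 0.72 ± 0.21 fasted and 0.10 ± 0.21 refed. The gallbladder sum was 1.03, 1.02, 0.99 and 1.06, of which Gata4 made up 0.84, 0.83, 0.87 and 0.72. Gata4 was at a difference of -0.03 ± 0.21 fasted and -0.28 ± 0.21 refed. The other 6 genes, Krt20 among them, summed to 0.19, 0.19, 0.12 and 0.35, highest in Drp1LiKO refed. Only 1 of the 7 gallbladder genes was detected on all 4 arrays.

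Among the other blood and vessel lists the medians were 0.04 fasted and -0.35 refed for endothelial cells, -1.04 and 0.02 for neutrophils, -0.27 and -0.34 for lymphocytes, and -0.90 and 0.04 for erythroid cells. The endothelial genes Kdr and Lyve1 were at -0.81 ± 0.20 and 0.93 ± 0.22 fasted and at -0.93 ± 0.20 and 0.24 ± 0.22 refed. Of the neutrophil genes, Retnlg was at -1.59 ± 0.21 fasted and -0.74 ± 0.23 refed, and S100a9 was lower fasted (-1.11 ± 0.20) and higher refed (1.04 ± 0.20). Of the erythroid genes, Slc4a1 was at -3.69 ± 0.24 and 0.04 ± 0.27, and Alas2 at -0.97 ± 0.20 and -1.29 ± 0.20. The part of these cell types and of dividing cells in the members' differences was not tested.

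Genes with the most similar pattern over the 4 arrays were searched among 12419 genes with a gene symbol and detected on all of them, as the smallest Euclidean distance between centred log2 levels. With 4 arrays many genes lie close, and likeness is a description only. Nearest to Ly6d was Trib3, at a distance of 0.61, nearest to Krt23 was Lpin1 at 0.75 with Lpin2 next at 0.85, and nearest to Afp was Fibin at 0.17. Spp1 was nearest to Asah1 at 0.07, Cd24a to Rab31 at 0.05 and Krt19 to Nrm at 0.05. No gene came as near to Ly6d or Krt23 as the nearest genes came to the other 4 members. Levels were centred but not scaled, so a gene whose levels differ widely tends to have more distant neighbours. These distances therefore do not show that a pattern is unusual.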

How the data were processed

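The members and gene lists were chosen with earlier results of these data known. The values used were the intensity columns of processed signals as deposited: per the file headers, Agilent Feature Extraction 10.7.1.1 subtracted background within each array (the submitters' processing notes name version 9.5.1.1). All 4 arrays came from 1 slide, so slide does not separate the groups. RNA extraction kit, array design and the length of the fast before refeeding differ between GEO's labels and the study's methods. Probe positions are on mm9. Control spots and outlier spots were left out, which dropped 37 probes, repeated spots were averaged, and log2 signals were set relative to each array's 75th percentile. A probe was well above background where at least a share of 0.5 of its spots was. A gene took the probe well above background on most arrays, then the brightest. With 1 array per group no test was run, and the number of arrays limits the precision. All members were named. Of each of 23 lists (283 genes), genes called alike in both genotype comparisons were named, otherwise the 2 with the largest mean absolute genotype difference among genes well above background on all 4 arrays. Regulators, bile duct factors and defining markers could also be named, and some list genes are not reported here. Other named genes, such as those of a count of 5 or fewer, were chosen after their values were seen. The authors' matrix of linear normalized signal values served as an alternative. Its columns shared nearly the same distribution. The code that calls differences was checked on simulated arrays with known changes. These held the scanner's error but no variation between mice, so they do not test any difference reported here. Python 3.11.15, pandas 2.3.3, numpy 2.4.6, R 4.3.3 and limma 3.58.1 were used.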

Additional observations from a re-analysis of the deposited data

Results flagged for a closer look

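The genotype difference of Krt23 had opposite signs in the 2 feeding states: Drp1LiKO minus Cont was 1.35 on the log2 scale in fasted mice and -2.19 in refed mice, each more than 2 measurement errors from 0. With 1 array per group the difference between them was not tested. Groups of 1 array hold no sample that could stand apart from the others.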

How the results depend on the processing

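Each count was recalculated under 9 alternatives, each median under 8 and each member difference under 6 to 8, where a value could be had. Of 122 recalculated counts and medians, 104 stayed close, a count within 1.5-fold and a median within a measurement error, and of 254 member differences 229 stayed within a measurement error. Part of this agreement was fixed in advance. The median over probes, and the restriction to probes well above background on all 4 arrays, left every member difference they gave unchanged. Keeping flagged spots changed only Afp and Sox9, and taking dim signals as measured changed only bounds. Most of the member differences that moved did so with normexp. No called difference changed sign. With normexp background correction the members higher in Drp1LiKO were 3 fasted (Krt23, Spp1 and Ly6d) and 1 refed (Ly6d), 1 was higher in both states, and the medians were 0.71 and 0.28. With the same correction 0 members were lower on refeeding in Cont, and in Drp1LiKO 0 were higher and 1 was lower, with a median of -0.024. The 1.5-fold threshold gave 1 member lower fasted (H19), 5 higher refed, 2 higher and 2 lower on refeeding in Cont, and 4 lower on refeeding in Drp1LiKO. Restricted to probes well above background on all 4 arrays, 4 members were higher fasted and 2 refed, and 0 were lower on refeeding in Cont and 1 in Drp1LiKO. With quantile normalization or the authors' values 3 were lower on refeeding in Drp1LiKO, Ly6d among them. With dim signals taken as measured, H19 was 1.08 higher refed, a called difference, and the median refeeding difference was -0.22 in Cont and -0.53 in Drp1LiKO. Normexp compresses low signals by construction. The cause of the other shifts was not tested. No paired analysis was possible because each group has 1 array. Nearness to background limits Afp, H19, Gpc3, Krt19, Sox9 and Epcam. In Cont fasted the signals of Afp (43.5) and Krt19 (42.8) were as low as that of Sox9 (43.0). The lowest probe signal well above background on that array was 27.3.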
